A study of Mus musculus with 4 samples.

Results

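Nucleolar ribosome biogenesis genes encode the proteins that transcribe ribosomal RNA, modify and cut it, and assemble it into the precursors of both ribosomal subunits. The set described here holds 35 genes of 55573 gene identifiers measured. It was chosen by name, as listed genes of rRNA transcription, small nucleolar ribonucleoproteins (snoRNPs) and ribosome assembly, and each of the 35 symbols matched 1 identifier. Members and comparison lists were chosen with earlier results of these data known, so their shares beside those of all genes are descriptions, not tests. The data are RNA sequencing of B cells sorted from bone marrow of C57BL/6 mice aged 8 to 12 weeks. The sort was labelled Fr.C+C′, fractions of the Hardy scheme around the step between pro-B and pre-B cells. The groups were 2 libraries of mice labelled ADAR1 KO (KO 1 and KO 2) and 2 libraries of wild type mice (WT 1 and WT 2). ADAR1, the product of Adar, is an RNA editing enzyme. The labels name neither the deleted exons nor any Cre driver, nor whether KO 1 and KO 2, or WT 1 and WT 2, are separate animals, so p-values speak only of the spread among the libraries, part of which could be technical.

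In the nucleolus, RNA polymerase I copies the ribosomal DNA into 1 long precursor RNA. Guide snoRNPs of the box C/D class add methyl groups and those of the box H/ACA class convert uridine to pseudouridine. The small subunit processome folds and cuts the part that becomes the small subunit, and other factors build the large subunit. The demand for new ribosomes is high in dividing cells such as pro-B and pre-B cells, and many of these genes are known targets of the transcription factor MYC.

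Per library, between 15122760 and 16415496 fragments were assigned to genes, an estimate from the steps between low values. Adar stood at 15.19 and 16.79 FPKM (fragments per kilobase of exon, scaled to the library's total) in KO 1 and KO 2, against 15.04 and 14.62 FPKM in WT 1 and WT 2, and since a whole-gene level would miss a deletion of part of the gene, it does not check the label. The label of the cells was checked against 22 B lineage markers, all of which were detected, among them Cd24a, Spn and Enpep of the Fr.C gate. Markers of neutrophils, which the gate should lack, took 3.87% and 7.69% of fragments in KO 1 and KO 2, against 2.90% and 2.72% in WT 1 and WT 2. KO 2 stood apart, since its 10 top genes took 24.0% of the summed FPKM, against 14.3% in KO 1 and 12.5% and 12.2% in WT 1 and WT 2. This share overlaps with that of the neutrophil markers. Of those, S100a9 was at 15796 and 32346 FPKM in KO 1 and KO 2, against 11647 and 11187 FPKM in WT 1 and WT 2. Results below are therefore given with and without KO 2 and KO 1.

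Promoter letters are shown first, and whether they go with the low level of the 35 genes in KO 2 was not tested. RefSeq windows of GRCm38.p6 were matched for 28 of the 35 members (not Bop1, Fbl, Npm1, Rrp12, Rrs1, Tcof1 and Wdr36), and the 250 bases before the first listed start of each were searched on both strands, with matches of different motifs counted also where they overlapped. The E-box CACGTG, the core that MYC and its partner MAX bind, was found in 1 of the 28 windows (3.57%), against 6.64% of 17491 windows of protein-coding genes. The 7 letters CCGGAAG, a core bound by ETS family factors, were found in 6 of 28 windows (21.4%), against 9.12% of protein-coding windows. GGGCGG, the core of the GC box, was found in 19 of 28 (67.9%) against 42.7%, and TATAAA in 3 of 28 (10.7%) against 12.4%. A match is a description of the letters and not a binding site, and no match says only that these letters were not in the window. The protein-coding windows were not limited to genes expressed here, so expressed genes alone were not compared. The window with the E-box, of Nop2, is printed with those of Gar1 and Nolc1. These last were picked from the members with CCGGAAG by the fit of KO 2 alone against wild type. Their log2 changes in KO 2 were -0.72 (Gar1) and -0.66 (Nolc1). The other members with CCGGAAG, Nhp2, Nop2, Polr1c and Heatr1, ran from -0.67 to -0.50. Ncl, whose window lacks CCGGAAG, was at -0.63, and the median of the 35 members was -0.53. Capitals mark CACGTG and CCGGAAG, the second also as its reverse complement CTTCCGG. The windows lie at chr6:125131633-125131882 on the plus strand for Nop2, chr3:129831397-129831646 on the minus strand for Gar1 and chr19:46075597-46075846 on the plus strand for Nolc1, each written 5′ to 3′ on the strand of the gene.
Nop2: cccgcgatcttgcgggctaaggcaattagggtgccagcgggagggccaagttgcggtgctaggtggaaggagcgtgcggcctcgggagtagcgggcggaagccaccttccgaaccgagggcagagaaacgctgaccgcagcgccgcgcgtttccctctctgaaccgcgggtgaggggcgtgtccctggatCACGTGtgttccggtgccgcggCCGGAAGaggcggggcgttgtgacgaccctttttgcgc
Gar1: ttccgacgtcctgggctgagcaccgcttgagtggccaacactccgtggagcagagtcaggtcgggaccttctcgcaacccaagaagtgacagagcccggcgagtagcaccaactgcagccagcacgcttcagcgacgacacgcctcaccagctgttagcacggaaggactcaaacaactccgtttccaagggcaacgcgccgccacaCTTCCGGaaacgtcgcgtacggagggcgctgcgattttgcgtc
Nolc1: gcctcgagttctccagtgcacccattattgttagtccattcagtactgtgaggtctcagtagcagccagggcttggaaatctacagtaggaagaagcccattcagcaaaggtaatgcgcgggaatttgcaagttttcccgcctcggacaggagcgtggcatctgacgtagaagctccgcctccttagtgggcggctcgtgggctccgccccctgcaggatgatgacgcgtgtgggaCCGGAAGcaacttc
In Nop2 the E-box began 60 bases and CCGGAAG 38 bases before the start, and in Gar1 and Nolc1 the match began 43 and 14 bases before it.

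The comparison asks whether transcripts for making ribosomes differ in early B cells labelled as lacking ADAR1. KO 2 held the lowest of the 4 values for all 35 members, a pattern shown by 51.4% of the 13281 genes tested. In KO 2 the members stood at 55.9% (Nop16) to 97.2% (Polr1a) of the wild type mean, with a median of 66.6%. Its level was at least 25% below the wild type mean for 31 members (88.6%, against 31.4% of genes tested), the others being Polr1a, Wdr3, Fbl and Rrp12. KO 1 did not show this: its values ran from 82.6% (Wdr12) to 118% (Rrp9) of the wild type mean, with a median of 101%. In KO 1, 16 members lay above both wild type values (45.7% of members, against 37.5% of genes tested), 16 below both (45.7%, against 39.2%) and 3 between them (8.57%, against 23.3%). The summed level of the 35 genes was 1245 and 851 FPKM in KO 1 and KO 2, against 1320 and 1274 FPKM in WT 1 and WT 2. In bulk RNA, fewer cells of a type and less RNA per cell cannot be told apart.

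**Figure D1:**
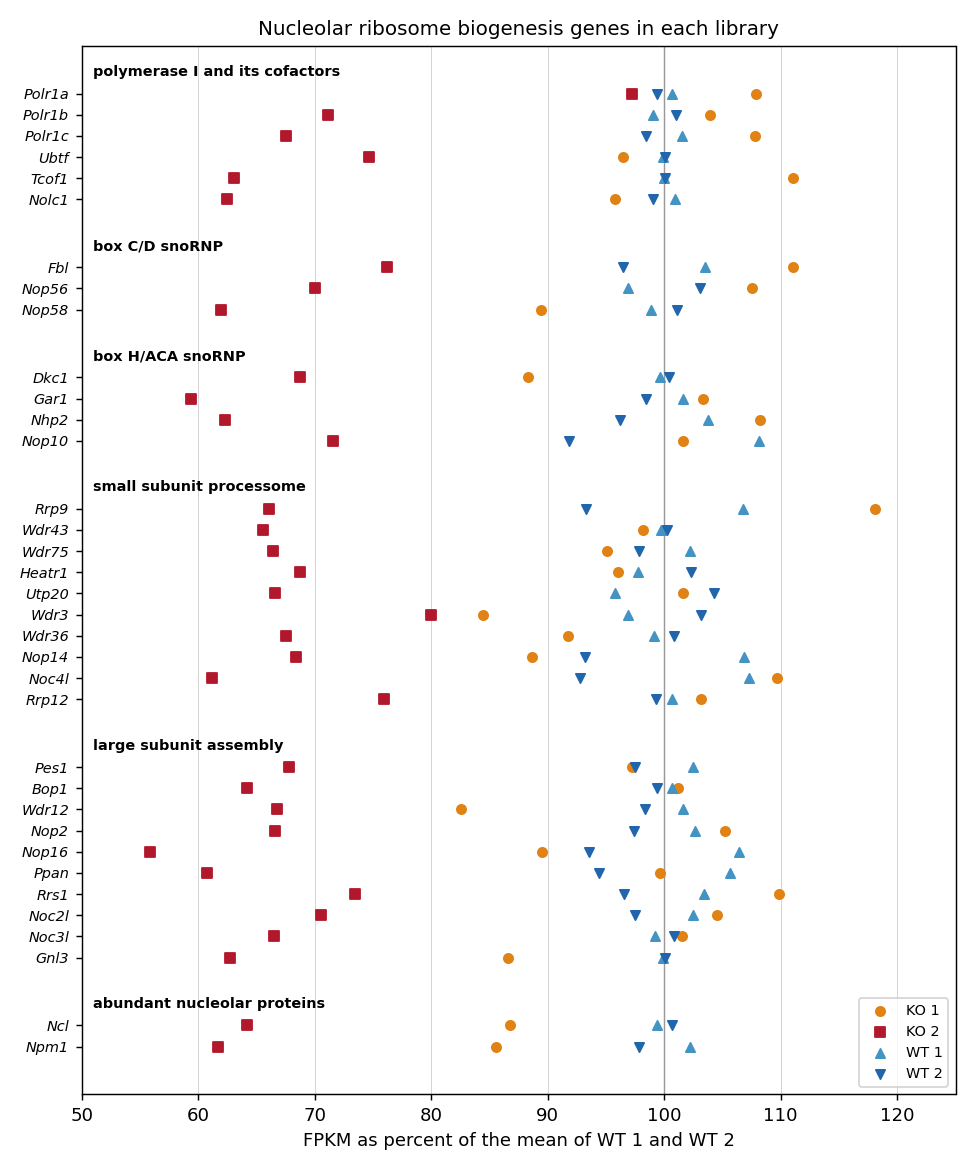
Each row is 1 gene and each point 1 library, drawn as FPKM in percent of the mean of WT 1 and WT 2 (x axis), with genes grouped by role. KO 2 (red squares) is the lowest point in all 35 rows, while KO 1 (orange circles) lies from 82.6% to 118% and falls on both sides of the wild type points.

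The test was limma on log2(FPKM + 1), fitted over the 13281 genes whose KO or WT mean reached 1 FPKM. All 35 members passed that filter. None of the 35 members passed an adjusted p of 0.05 (Benjamini-Hochberg over all genes tested, limma), where 0.203% of genes tested did, and 0 members had an unadjusted p under 0.05, where 12.5% of genes tested did (6.02% of genes tested had such a p and were lower). With limma-voom on estimated fragments, 0 members passed the adjusted threshold as well. The log2 change, KO minus WT, was negative for 34 of 35 members (97.1%, against 61.7% of genes tested). Its median was -0.28 over the members and -0.09 over all genes tested. Both KO libraries lay below both wild type libraries for 16 members (45.7%, against 31.7% of genes tested) and above both for 0 (against 19.7%). Shifting each library to the same level of the B lineage markers moves every gene of a library alike. It put the median of all genes at 0.46, with 5.89% of them negative, and that of the members at 0.28. The sign of most changes thus depends on the scaling. The members lie below the median of all genes by construction here, since such a shift cannot change that gap.

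The result differed with each KO library. KO 2 alone against both wild type libraries, fitted on the assumption that a lone library varies like the others, put 4 members past the threshold, all lower (11.4%, against 2.88% of genes tested called lower and 7.1% called in either direction). These were Nolc1, Gar1, Tcof1 and Ncl, with adjusted p-values of 0.0490, 0.0490, 0.0493 and 0.0495 in limma. At an unadjusted p under 0.05, 33 of 35 members were lower in that fit (94.3%, against 25.4% of genes tested). The calls by adjusted p stand only just past the threshold. The log2 changes of the members in that fit ran from -0.78 (Nop16) to -0.04 (Polr1a), with a median of -0.53. KO 1 alone against both wild type libraries put 0 members past the threshold in limma, and 0% of all genes, with a median change of 0.02.

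Ncl and Npm1, the most abundant members, were lower in both KO libraries. Ncl encodes nucleolin, which binds nascent ribosomal RNA and its chromatin. Ncl (ENSMUSG00000026234, GRCm38 chromosome 1, 86344719 to 86359400) was at 108.43 and 80.16 FPKM in KO 1 and KO 2, against 124.12 and 125.71 FPKM in WT 1 and WT 2. The groups did not overlap, at means of 94.3 ± 19.99 and 124.9 ± 1.12 FPKM (SD, n = 2 each), and the log2 change was -0.42 ± 0.20 (SE, 95% interval -0.92 to 0.09, adjusted p = 0.448 in limma). Npm1 encodes nucleophosmin, a chaperone of the granular part of the nucleolus. Npm1 (ENSMUSG00000057113, chromosome 11, 33152287 to 33163206) was at 275.05 and 198.45 FPKM in KO 1 and KO 2, against 328.66 and 314.46 FPKM in WT 1 and WT 2. Its groups did not overlap either, with a log2 change of -0.46 ± 0.22 (SE, 95% interval -1.03 to 0.11, adjusted p = 0.452 in limma). Both KO libraries lay below both wild type libraries for 31.7% of genes tested. The value of Npm1 is uncertain, since 4 processed pseudogenes match its mRNA at 95% identity or more over at least 300 bases and were listed at 148 and 115 FPKM in KO 1 and KO 2, against 177 and 170 FPKM in WT 1 and WT 2 in sum.

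Genes of RNA polymerase I and its cofactors held the member with the smallest log2 change. Polr1a, the largest polymerase I subunit, was at 9.12 and 8.22 FPKM in KO 1 and KO 2, against 8.51 and 8.40 FPKM in WT 1 and WT 2. It is the member with a positive log2 change (0.03), and KO 2 lay at 97.2% of the wild type mean. Polr1b, the second largest subunit, was at 9.90 and 6.78 FPKM in KO 1 and KO 2, against 9.43 and 9.62 FPKM in WT 1 and WT 2 (log2 change -0.19 ± 0.20 SE, adjusted p = 0.653, limma). Polr1c, a subunit that polymerase III also uses, was at 20.34 and 12.74 FPKM in KO 1 and KO 2, against 19.17 and 18.58 FPKM in WT 1 and WT 2. For all 3 subunits KO 1 was the highest library and KO 2 the lowest.

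Ubtf encodes UBF, which keeps ribosomal DNA in an open state, and was at 41.56 and 32.17 FPKM in KO 1 and KO 2, against 43.05 and 43.12 FPKM in WT 1 and WT 2 (log2 change -0.23 ± 0.17 SE, adjusted p = 0.559, limma). Tcof1, whose product treacle links polymerase I to rRNA processing, was at 38.27 and 21.75 FPKM in KO 1 and KO 2, against 34.45 and 34.49 FPKM in WT 1 and WT 2. Tcof1 therefore lay above wild type in KO 1 and at 63.1% of it in KO 2. Nolc1, encoding the snoRNP chaperone Nopp140, a relative of treacle, was at 46.06 and 30.06 FPKM in KO 1 and KO 2, against 48.56 and 47.66 FPKM in WT 1 and WT 2 (log2 change -0.36 ± 0.23 SE, adjusted p = 0.518, limma).

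The box C/D core, which methylates the ribose of ribosomal RNA, was lower in KO 2 for each of its subunits. Fbl encodes fibrillarin, the methyltransferase, and was at 23.61 and 16.20 FPKM in KO 1 and KO 2, against 22.01 and 20.51 FPKM in WT 1 and WT 2 (log2 change -0.11 ± 0.21 SE, adjusted p = 0.795, limma). Nop56 was at 58.36 and 37.99 FPKM in KO 1 and KO 2, against 52.58 and 55.92 FPKM in WT 1 and WT 2 (-0.20 ± 0.23 SE, adjusted p = 0.685). Nop58, which with Nop56 forms the scaffold of the particle, was at 14.61 and 10.12 FPKM in KO 1 and KO 2, against 16.16 and 16.53 FPKM in WT 1 and WT 2 (-0.40 ± 0.20 SE, adjusted p = 0.461). KO 1 lay above both wild type libraries for Fbl and Nop56 and below both for Nop58, so the groups were separate for Nop58 and overlapped for the others. Of genes tested, 37.5% had KO 1 above both wild type libraries, and 31.7% had both KO libraries below both.

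The box H/ACA core, which makes pseudouridine and also binds telomerase RNA, showed the same split. Dkc1 encodes dyskerin, the pseudouridine synthase, and was at 26.46 and 20.60 FPKM in KO 1 and KO 2, against 29.85 and 30.08 FPKM in WT 1 and WT 2 (log2 change -0.35 ± 0.17 SE, adjusted p = 0.452, limma). Gar1 was at 36.50 and 20.99 FPKM in KO 1 and KO 2, against 35.89 and 34.76 FPKM in WT 1 and WT 2 (-0.34 ± 0.27 SE, adjusted p = 0.578). Nop10 was at 54.53 and 38.40 FPKM in KO 1 and KO 2, against 58.03 and 49.27 FPKM in WT 1 and WT 2 (-0.22 ± 0.22 SE, adjusted p = 0.637). Nhp2, an RNA-binding subunit, stood at 80.98 and 46.62 FPKM in KO 1 and KO 2, against 77.64 and 72.02 FPKM in WT 1 and WT 2. Of these 4, Dkc1 had both KO libraries below both wild type libraries, as did 31.7% of genes tested. Gar1 had the lowest KO 2 value of the 4 relative to wild type, 59.4%.

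The order of levels within the box C/D core depended on the length used for scaling. In the deposited FPKM, which fits the union of all annotated exons, Fbl stood at 0.404 ± 0.026 and Nop58 at 0.280 ± 0.026 of the level of Nop56 (SD over 4 libraries). The union of exons of Nop58 is 10758 nt, against 1713 nt for the mRNA chosen as principal, of which 1332 nt are coding. All fragments of the union are placed on that 1 mRNA, so the rescaled level rests on this choice. Rescaled to principal mRNA length, the same ratios were 0.651 ± 0.043 for Fbl and 0.805 ± 0.075 for Nop58, so the order of the 2 reversed. In the Pes1, Bop1 and Wdr12 complex of large subunit assembly, Bop1 was at 1.03 ± 0.043 times Pes1 and Wdr12 at 0.115 ± 0.009 times Pes1 in FPKM. The exon union of Wdr12 is 11955 nt and its principal mRNA 10012 nt, of which 1269 nt are coding. Rescaled to that mRNA, Wdr12 was at 0.132 ± 0.010 times Pes1.

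**Figure D2:**
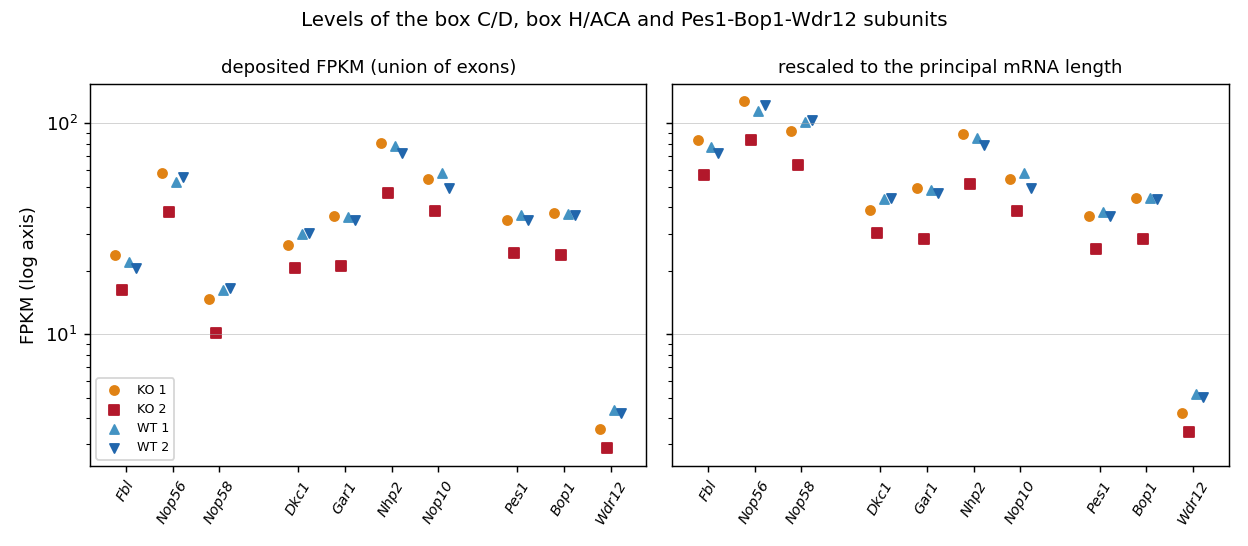
Levels of the subunits of 3 complexes in each library on a log axis, left in deposited FPKM and right rescaled to the length of the principal mRNA. KO 2 (red squares) is the lowest point for all 10 genes on both scales, while Nop58 moves from below Fbl on the left to above it on the right.

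Among small subunit processome genes, all 10 had negative log2 changes (against 61.7% of genes tested) and 6 had both KO libraries below both wild type libraries (against 31.7%). Wdr3, a WD-repeat protein of the processome, was at 12.27 and 11.62 FPKM in KO 1 and KO 2, against 14.08 and 14.99 FPKM in WT 1 and WT 2 (log2 change -0.26 ± 0.13 SE, adjusted p = 0.462, limma). It is the member in which KO 1 and KO 2 were most alike, at 84.4% and 79.9% of the wild type mean. Nop14 was at 18.87 and 14.56 FPKM in KO 1 and KO 2, against 22.74 and 19.84 FPKM in WT 1 and WT 2 (-0.34 ± 0.18 SE, adjusted p = 0.472). Wdr36 was at 6.93 and 5.10 FPKM in KO 1 and KO 2, against 7.49 and 7.62 FPKM in WT 1 and WT 2 (-0.30 ± 0.18 SE, adjusted p = 0.503). These 3 genes and Wdr43, Wdr75 and Heatr1 had no overlap between groups.

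Wdr43, Wdr75 and Heatr1 belong to the UTP-A module that joins the precursor RNA early. Wdr43 was at 26.14 and 17.46 FPKM in KO 1 and KO 2, against 26.56 and 26.70 FPKM in WT 1 and WT 2. Wdr75 was at 10.07 and 7.03 FPKM in KO 1 and KO 2, against 10.82 and 10.36 FPKM in WT 1 and WT 2. Heatr1 was at 13.92 and 9.96 FPKM in KO 1 and KO 2, against 14.16 and 14.82 FPKM in WT 1 and WT 2. For all 3, KO 1 was within 5% of the wild type mean while KO 2 stood at 65.6%, 66.4% and 68.7% of it. Utp20, a large HEAT-repeat protein, was at 8.02 and 5.26 FPKM in KO 1 and KO 2, against 7.56 and 8.23 FPKM in WT 1 and WT 2.

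The remaining 3 small subunit genes had KO 1 above both wild type libraries, as did 37.5% of genes tested. Rrp9, a protein specific to the U3 snoRNP, was at 12.89 and 7.21 FPKM in KO 1 and KO 2, against 11.65 and 10.18 FPKM in WT 1 and WT 2. Noc4l was at 25.17 and 14.03 FPKM in KO 1 and KO 2, against 24.60 and 21.28 FPKM in WT 1 and WT 2. Rrp12, which acts in export of the subunit precursors, was at 12.01 and 8.84 FPKM in KO 1 and KO 2, against 11.72 and 11.56 FPKM in WT 1 and WT 2. Rrp9 had the highest KO 1 value relative to wild type, 118%, with 66.1% in KO 2.

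Large subunit assembly genes had a median log2 change of -0.30, and 4 of 10 had both KO libraries below both wild type libraries, near the 31.7% of genes tested. Gnl3 encodes nucleostemin, a GTP-binding protein abundant in stem and dividing cells (ENSMUSG00000042354, chromosome 14, 31012433 to 31019152), and was at 16.81 and 12.18 FPKM in KO 1 and KO 2, against 19.39 and 19.43 FPKM in WT 1 and WT 2. Its log2 change of -0.41 ± 0.19 (SE, 95% interval -0.89 to 0.06) had the smallest p of all members, with an adjusted p of 0.440 in limma. Nop16 (ENSMUSG00000025869, chromosome 13, 54584185 to 54590090) was at 17.28 and 10.79 FPKM in KO 1 and KO 2, against 20.55 and 18.06 FPKM in WT 1 and WT 2. Nop16 had the most negative log2 change of the set, -0.47 ± 0.24 (SE, adjusted p = 0.471, limma), and rests on 505 and 301 fragments in KO 1 and KO 2 against 599 and 547 in WT 1 and WT 2. Wdr12 was at 3.55 and 2.87 FPKM in KO 1 and KO 2, against 4.37 and 4.23 FPKM in WT 1 and WT 2 (-0.34 ± 0.17 SE, adjusted p = 0.452). Its partner Pes1 was at 34.84 and 24.29 FPKM in KO 1 and KO 2, against 36.71 and 34.93 FPKM in WT 1 and WT 2. Bop1, the other partner, was at 37.40 and 23.73 FPKM in KO 1 and KO 2, against 37.22 and 36.73 FPKM in WT 1 and WT 2. Wdr12 and Pes1 had both KO libraries below both wild type libraries, and Bop1 did not. In KO 1 these 3 stood at 82.6% (Wdr12), 97.3% (Pes1) and 101% (Bop1) of the wild type mean.

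Nop2, an rRNA cytosine methyltransferase, was at 31.38 and 19.87 FPKM in KO 1 and KO 2, against 30.61 and 29.05 FPKM in WT 1 and WT 2. Ppan was at 21.24 and 12.96 FPKM in KO 1 and KO 2, against 22.52 and 20.13 FPKM in WT 1 and WT 2. Rrs1, which helps to bring the 5S RNA particle into the subunit, was at 33.41 and 22.34 FPKM in KO 1 and KO 2, against 31.46 and 29.36 FPKM in WT 1 and WT 2. These 3 genes overlapped between groups, with KO 2 at 66.6%, 60.8% and 73.5% of the wild type mean. Noc2l was at 49.73 and 33.57 FPKM in KO 1 and KO 2, against 48.77 and 46.40 FPKM in WT 1 and WT 2. Noc3l, which in yeast pairs with the counterpart of Noc2l, was at 8.84 and 5.79 FPKM in KO 1 and KO 2, against 8.64 and 8.78 FPKM in WT 1 and WT 2. KO 1 was the highest library for both.

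Other genes of the pathway were also mostly lowest in KO 2. Of 124 further ribosome biogenesis genes listed by role, all were tested, 0 passed in limma or in voom, and 4 had an unadjusted p under 0.05 (limma, all lower). KO 2 was the lowest library for 119 of them (96.0%, against 51.4% of genes tested), and both KO libraries lay below both wild type libraries for 63 (50.8%, against 31.7%). In KO 1, 64 of the 124 lay below both wild type libraries, 30 above both and 30 between them, where the members had 16, 16 and 3, a difference that was not tested. On the log2 scale their median change was -0.05 (KO 1) and -0.44 (KO 2), against 0.02 and -0.53 for the 35 members and -0.01 and -0.17 for all genes tested. With KO 2 alone against wild type 5 of the 124 passed, all lower (4.03%, against 2.88% of genes tested), and these were Snu13, Emg1, Nol7, Rrp1 and Ddx54, with adjusted p-values of 0.0432, 0.0493, 0.0486, 0.0491 and 0.0490 in limma.

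The named genes of that list are the 4 of each role with the smallest p. In the small subunit processome, Esf1 was at 6.34 and 5.06 FPKM in KO 1 and KO 2, against 7.91 and 9.5 FPKM in WT 1 and WT 2 (log2 change -0.54 ± 0.18 SE, adjusted p = 0.372, limma). Ddx10 (-0.38), Fcf1 (-0.39) and Nol7 (-0.46) followed, with adjusted p-values of 0.394, 0.395 and 0.433. In large subunit assembly these were Nsa2 (-0.39), Rpf2 (-0.43), Ftsj3 (-0.40) and Rrp1 (-0.42), with adjusted p-values between 0.396 and 0.442. Of the polymerase I genes, Polr2k, a small subunit shared by all 3 nuclear polymerases, had a log2 change of -0.44, followed by Taf1d (-0.32), Polr1f (-0.28) and Polr1g (-0.35), with adjusted p-values between 0.409 and 0.482. Of the snoRNP assembly factors, Snu13, the RNA-binding protein of box C/D particles, was at 53.63 and 28.95 FPKM in KO 1 and KO 2, against 56.53 and 54.08 FPKM in WT 1 and WT 2 (-0.48 ± 0.30 SE, adjusted p = 0.518). Znhit3 (-0.36), Ruvbl1 (-0.36) and Rpap3 (-0.28) had adjusted p-values of 0.432, 0.481 and 0.601. Myc, a regulator of many of these genes, was at 57.04 and 32.83 FPKM in KO 1 and KO 2, against 47.28 and 41.48 FPKM in WT 1 and WT 2, highest in KO 1 and lowest in KO 2 (adjusted p = 0.960, limma). Of the 9 genes of the MYC family and its partners, 4 were lowest in KO 2, against 51.4% of genes tested. Another 5 had each KO value over each wild type value, against 19.7% of genes tested. Among these 5 was Mxd1, a MAX partner that opposes MYC. Mxd1 stood at 53.79 and 86.35 FPKM in KO 1 and KO 2, against 28.83 and 31.04 FPKM in WT 1 and WT 2. The part of other cells in the sort, such as neutrophils, in the level of Mxd1 was not tested. In limma 0 of the 9 passed, with 3 at an unadjusted p under 0.05, against 12.5% of genes tested.

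**Figure D3:**
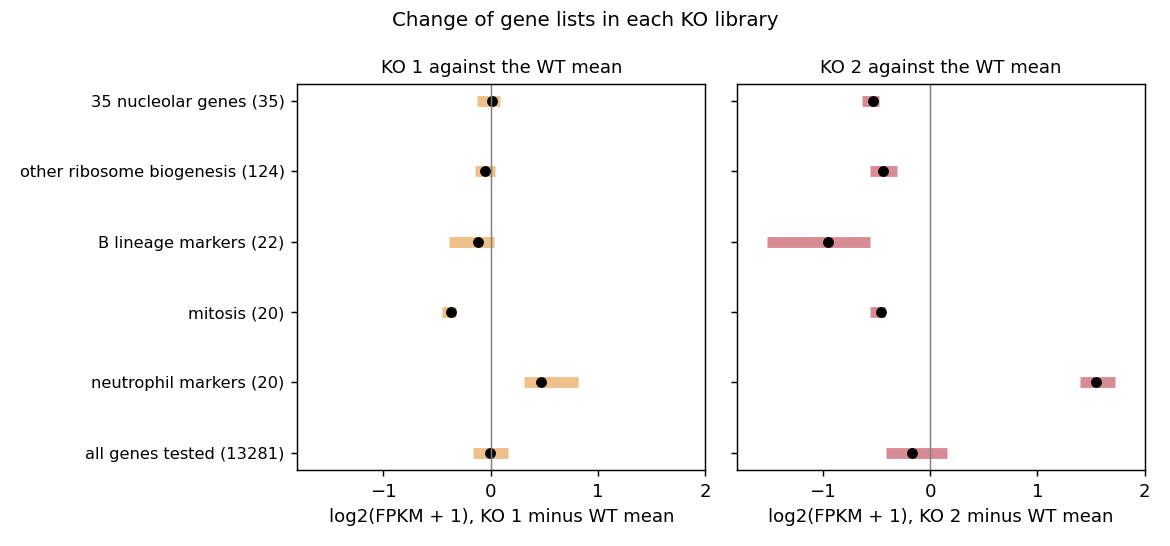
Median (black dot) and quartiles (bar) of the change of 6 gene lists in KO 1 (left) and KO 2 (right), each minus the mean of WT 1 and WT 2 on the log2(FPKM + 1) scale, with the number of genes tested in brackets. The 35 nucleolar genes have a median of 0.02 in KO 1 and -0.53 in KO 2, with narrower quartiles than all genes tested, while the neutrophil markers lie to the right in both.

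Markers of the cells in the sort did not all move in the same direction. The 22 B lineage markers had a median change of -0.12 in KO 1 and -0.95 in KO 2. Their summed level was 3916 and 2162 FPKM in KO 1 and KO 2, against 4681 and 5129 FPKM in WT 1 and WT 2. The change was negative for 14 of them in KO 1 and 19 in KO 2, against 6775 and 8653 of the 13281 genes tested. Spn, Vpreb2 and Dntt were higher in KO 2 (0.30, 0.19 and 0.04), while Cd79a was lower in KO 1 and KO 2 (-1.17 and -2.16). The 20 neutrophil markers had medians of 0.47 and 1.54 and sums of 38206 and 78186 FPKM in KO 1 and KO 2, against 29431 and 27423 FPKM in WT 1 and WT 2. Of these markers, 17 of 20 were higher in both KO libraries than in both wild type libraries, against 19.7% of genes tested. Neither list has a gene at 0 in every library. The median change of 20 mitosis genes was -0.37 (KO 1) and -0.46 (KO 2). For all 20 each KO library lay under each wild type library, against 31.7% of genes tested. In the median, KO 1 was thus low for mitosis genes and near wild type for the nucleolar genes. Erythroid genes were at 336 and 634 FPKM in sum in KO 1 and KO 2, against 1287 and 749 FPKM in WT 1 and WT 2. The 10 markers of T and NK cells summed to 79.5 and 134 FPKM in KO 1 and KO 2, against 77.6 and 70.4 FPKM in WT 1 and WT 2. Of these, Nkg7, a gene of cytotoxic granules, was at 27.77 and 79.15 FPKM in KO 1 and KO 2, against 26.52 and 22.46 FPKM in WT 1 and WT 2, while Lck, a kinase of T cell receptor signalling, was at 20.93 and 13.18 FPKM in KO 1 and KO 2, against 20.70 and 21.21 FPKM in WT 1 and WT 2. The 10 markers of monocytes and macrophages summed to 176 and 293 FPKM in KO 1 and KO 2, against 349 and 208 FPKM in WT 1 and WT 2. The part of these cells in the members' lower level in KO 2 was not tested. When libraries were rescaled to the same sum outside neutrophil and immunoglobulin genes, the median of the members was -0.23.

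The members differed little from each other in either KO library, and their order in KO 1 went with base composition. The SD of the log2 change over the 35 members was 0.13 in KO 1 and 0.14 in KO 2, against 0.45 and 0.64 over all genes tested, 0.14 and 0.17 over the 124 other pathway genes and 0.11 and 0.11 over the 20 mitosis genes. Across the 35 members the change in KO 1 had a Spearman's rho of 0.73 with the GC content of the principal mRNA, and across 10856 protein-coding genes tested the rho was 0.39. In KO 2 these values were -0.06 and 0.09. Genes are not independent replicates, and all points of a library share its preparation, so no p is given. The 16 members above both wild type libraries in KO 1 had a median GC content of 55.1%, and the 16 below both had 44.8%. The sides overlapped, from 43.7% to 59.8% above and from 40.4% to 54.7% below. Npm1, Ncl, Nop58, Dkc1, Gnl3 and Wdr12, all with a GC content under 45%, were among those below, and Fbl, Rrp9 and Tcof1, at 56.7%, 59.8% and 58.3%, among those above. Noc3l, at 43.7%, lay above, and Ubtf and Nolc1, at 54.7% and 51.6%, lay below. After a GC curve was taken off each library, the change in KO 1 ranged from -0.17 to 0.12 over the members, and the median in KO 2 was -0.40. The curve also takes off a shift common to all genes of a library. The median log2 change, KO minus WT, was -0.02 over the 10856 genes of that fit, against -0.09 over the 13281 genes of the main fit. After it 33 of 35 members had their lowest value in KO 2. The share over all genes of that fit was not computed, so this count cannot be read as a trait of the members. The others were Polr1a, with a change of 0.09 in KO 2, and Wdr3, with -0.17 in KO 1 and -0.14 in KO 2. For 18 members both KO libraries lay below both wild type libraries (against 25.9% of genes in that fit).

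**Figure D4:**
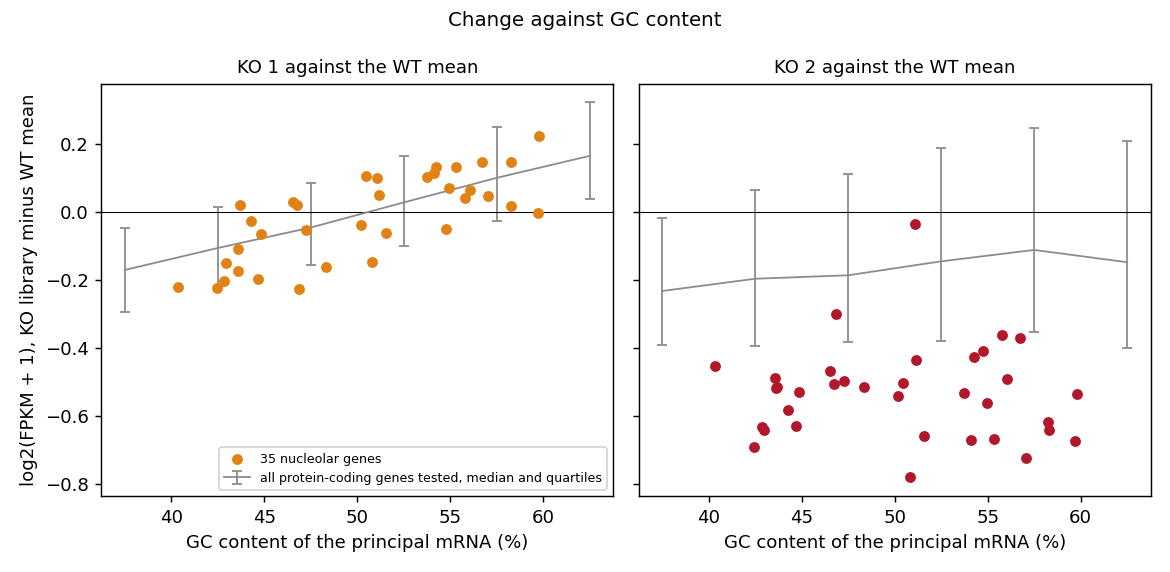
Change of each of the 35 genes (points) in KO 1 (left) and KO 2 (right) minus the wild type mean on the log2(FPKM + 1) scale, against GC content of the principal mRNA in percent, with the median and quartiles of all protein-coding genes tested in steps of 5% (grey). In KO 1 the points rise with GC content along the grey line, and in KO 2 all but Polr1a lie below the grey medians without such a slope.

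The members lie on 17 chromosomes, with 5 on chromosome 1 and 4 on chromosome 11. A protein-coding neighbour starts head to head within 1000 bases for 8 members. Ddx51, a helicase of large subunit assembly whose start lies 34 bases from that of Noc4l, was at 8.13 and 6.10 FPKM in KO 1 and KO 2, against 7.96 and 8.21 FPKM in WT 1 and WT 2, a change of 0.01 in KO 1 and -0.36 in KO 2. In KO 2 the change was -0.39 for Ptcd3, -0.31 for Hsf1 and -0.34 for Pbrm1, partners of Polr1a, Bop1 and Gnl3. Over all genes tested the change in KO 2 had a median of -0.17 and quartiles of -0.41 and 0.16. Polr1a itself changed by -0.04 in KO 2, less than its partner. For other partners the change in KO 2 was near 0. Higd2a, 117 bases from Nop16, was at 65.27 and 60.61 FPKM in KO 1 and KO 2, against 66.50 and 55.46 FPKM in WT 1 and WT 2. Yipf3, 26 bases from Polr1c, was at 27.12 and 20.11 FPKM in KO 1 and KO 2, against 21.15 and 20.02 FPKM in WT 1 and WT 2. Within 7 members lie 22 annotated small RNA genes, 21 of them snoRNAs, the class of RNA that the particles above carry. Of these 14 were listed at 0 in every library and the highest of the others reached 9.74 FPKM, so they could not be compared. Exons of Noc2l overlap those of Samd11 on the other strand over 20.9% of their length, and those of Wdr3 overlap other genes over 16.2%. The sources used here do not say whether counting used strand, so reads of such pairs cannot be told apart, although Samd11 was at 0.51 to 1.38 FPKM.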

How the data were processed

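RNA of sorted bone marrow B cells was sequenced in 2 libraries of ADAR1 KO and 2 of WT mice. The authors deposited FPKM values per Ensembl gene identifier, 1 file per library, to 2 decimals, per the file headers. The submitters' processing notes name build mm9. The sources used here give neither aligner nor counter. FPKM times union exon length in GENCODE M21 (GRCm38) fell within 0.15 fragments of a whole number for 99.5% to 99.6% of low values, where chance gives 30%, which gave the fragments per library. Coordinates are GRCm38, promoters RefSeq GRCm38.p6, and the principal mRNA was chosen by APPRIS tag and coding length. Symbols were found for 55480 identifiers.

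Genes were tested with limma 3.58.1 in R 4.3.3. Values were log2(FPKM + 1), the spread was modelled as a function of the mean, and genes were kept where the KO or WT mean reached 1 FPKM. This scale understates changes of low genes. Benjamini-Hochberg adjustment covered all genes tested. The script was tested on simulated data first. With 2 against 2 libraries an exact permutation test cannot go below a p of 0.333, so none was run. Libraries of a group differed by more than counting noise (chi-square per degree of freedom 54.7 for KO and 7.74 for WT), so none was counted as a copy. Near-identical copies were searched with BLAST 2.17.0. Members and lists were chosen with earlier results of these data known. All 35 members are named, with the test's values for the 3 of each role (both where a role holds 2) with the smallest p. Of the other pathway genes, the 4 of each role with the smallest p are named. Calls with KO 2 alone, partners and copies were named after their values were seen.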

Additional observations from a re-analysis of the deposited data

How the results depend on the processing

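The count of members past the limma threshold was 0 in each setting tried that kept all 4 libraries, and was 0 to 4 over the fits that leave out 1 library, with 4 only without KO 1. The same range for the 124 other pathway genes was 0 to 5. The members' median was -0.28, was negative under the other scalings and 0.28 under B-lineage scaling (chosen after seeing the data), a shift of whole libraries that put the median of all genes at 0.46 and left 5.89% of them negative, and ran from -0.53 without KO 1 to 0.02 without KO 2. The count over all genes was 27, and 15 with a pseudocount of 0.1, 0 with no filter on low values (2257 at an unadjusted p under 0.05 in limma), 9 with voom on estimated fragments, 68 with the replicate block, 187 with B-lineage scaling, 1 with GC correction and 0 to 948 when leaving out 1 library, with 0 without KO 2 (1969 at an unadjusted p under 0.05), 14 without WT 1, 29 without WT 2 and 948 without KO 1. Over the fits without 1 library, the members whose log2 change took both signs ran as follows: Polr1a -0.036 to 0.098, Polr1b -0.44 to 0.051, Polr1c -0.53 to 0.10, Tcof1 -0.64 to 0.15, Fbl -0.37 to 0.15, Nop56 -0.50 to 0.10, Gar1 -0.72 to 0.046, Nhp2 -0.67 to 0.11, Nop10 -0.47 to 0.028, Rrp9 -0.53 to 0.22, Utp20 -0.51 to 0.021, Noc4l -0.67 to 0.13, Rrp12 -0.36 to 0.042, Bop1 -0.62 to 0.016, Nop2 -0.56 to 0.071, Rrs1 -0.43 to 0.13, Noc2l -0.49 to 0.063 and Noc3l -0.52 to 0.019. Of these, Polr1a turned negative without KO 1 and the other 17 turned positive without KO 2. With principal mRNA length, levels relative to Nop56 were 0.651 for Fbl and 0.805 for Nop58 (0.404 and 0.280 in FPKM), and Wdr12 was at 0.132 of Pes1 (0.115 in FPKM). The cause of these shifts was not tested, other than by construction for length. Same-numbered KO and WT libraries deviated from their group means with a correlation of -0.15 over genes. With 2 libraries per group this value cannot decide whether same-numbered samples share more than the number. The replicate block left 0 members called. A crossed pairing gave 213 genes over all, 0 of them members. The crossed pairing, GC correction, the fit with no mean-variance trend and the mRNA length were also chosen after seeing the data. Each member rests on 301 to 21024 fragments per library. For Wdr3, with 1014 and 917 fragments in KO 1 and KO 2, the gap between these libraries is near counting error.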
